A study of Mus musculus with 10 samples.

Results

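Enamel is laid down by ameloblasts, epithelial cells of the enamel organ that differentiate near birth, long after the bud and cap stages. They secrete the matrix proteins amelogenin (Amelx), ameloblastin (Ambn) and enamelin (Enam). These are later cut and removed by matrix metallopeptidase 20 (Mmp20) and kallikrein-related peptidase 4 (Klk4). Amelotin (Amtn) and odontogenic ameloblast-associated protein (Odam) are best known from maturing ameloblasts and from the epithelium that attaches the gum to the tooth. These 5 matrix and 2 protease genes were examined in molar tooth germs in which no enamel has yet formed, among 27528 genes on the array. The study placed 6 of them, all but Odam, in its set of genes needed for the later hard tissues, which served as a control set at these stages.

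First molar germs of wild type NMRI mice, an outbred stock, were dissected at embryonic days E13.5 (bud stage) and E14.5 (cap stage). No treatment or engineered allele is named for either stage. RNA of 12 to 18 whole germs was pooled per sample and hybridised to Affymetrix Mouse Exon 1.0 arrays, with 5 samples per stage numbered 1, 2, 4, 5 and 6. A pool holds epithelium and mesenchyme together, and p-values measure the spread between such pools. Values are read as log2 signals, 1 per gene and array. The genes were selected on their role in enamel with their E13.5 and E14.5 signals on these arrays already known, above all the large stage difference of Odam. Their rows were found by Ensembl ID: ENSMUSG00000009580 (Odam), ENSMUSG00000029288 (Ambn), ENSMUSG00000031354 (Amelx), ENSMUSG00000029286 (Enam), ENSMUSG00000029282 (Amtn), ENSMUSG00000018620 (Mmp20) and ENSMUSG00000006948 (Klk4). Their own differences between the stages are therefore given as a description, with no test.

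The place of a gene among others is given as its percentile among all genes of the same array. Like the signal, it depends on the probes of the gene and is no measure of transcript number against another gene. No detection call was used, so a low signal was not told apart from background. Array medians lay between 5.06 and 5.22 at both stages, and the SD of signals over the genes was smallest for E14.5 replicate 4 (1.51) and greatest for E13.5 replicate 6 (1.74). The array of E13.5 replicate 1 stood apart in epithelial genes: Foxi3, a transcription factor of the dental epithelium, read 7.43 there and between 8.84 and 9.18 on the other E13.5 arrays. The stages were compared with limma, a linear model fitted to every gene with variances moderated over all genes, in which 7.85% of all genes were past an adjusted p of 0.05. Of all genes, 4.36% were past it and higher at E14.5, and 3.49% were past it and lower, a balance that turned to slightly more falls than rises with array quality weights, without dim genes and without E13.5 replicate 2.

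Odam, Amtn, Ambn and Enam lie in this order on mouse chromosome 5 in the RefSeq gene table (GRCm38.p6). That table lists 13 genes between Odam and Amtn, 1 between Amtn and Ambn and 0 between Ambn and Enam. Amelx is on chromosome X, Mmp20 on chromosome 9 and Klk4 on chromosome 7. All 7 genes matched a RefSeq promoter window of 250 bases before to 50 bases after the transcription start. The window of Odam is shown whole, 5′ to 3′, because Odam is the gene whose signal differed most. Capitals mark the 3 short motifs found in it, which are TAATTG, then ACCACA (the reverse of TGTGGT), then TGATTGG (the reverse of CCAATCA).
Odam (chr5:87884760-87885059, plus strand): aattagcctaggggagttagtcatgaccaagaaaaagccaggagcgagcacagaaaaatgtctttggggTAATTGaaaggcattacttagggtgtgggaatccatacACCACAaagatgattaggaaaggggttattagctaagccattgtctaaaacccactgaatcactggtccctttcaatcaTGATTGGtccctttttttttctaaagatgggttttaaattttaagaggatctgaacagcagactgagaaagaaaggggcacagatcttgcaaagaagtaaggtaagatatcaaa

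The motifs were chosen after the sequences were seen, so their matches are a description. CCAATCA, a form of the CCAAT box that the factor NF-Y binds, was found reversed as TGATTGG in the windows of all 5 matrix genes and in neither protease window. Searched on both strands, it was present in 2568 of 32851 windows of the RefSeq table (7.82%). It began 64 bases before the start in Odam, 68 in Amtn, 49 in Ambn, 72 in Enam and 60 in Amelx. In this place and direction, beginning 100 to 21 bases before the start, it was found in 2.13% of all windows. The stretches around the box follow, each read along its gene with the box in capitals and 20 bases on either side, because the box is the one searched motif that all 5 matrix genes share.
Odam (chr5:87884926-87884972, plus strand): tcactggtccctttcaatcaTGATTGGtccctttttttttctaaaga
Amtn (chr5:88376020-88376066, plus strand): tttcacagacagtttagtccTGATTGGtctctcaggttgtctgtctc
Ambn (chr5:88455922-88455968, plus strand): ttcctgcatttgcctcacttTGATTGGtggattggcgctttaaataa
Enam (chr5:88487883-88487929, plus strand): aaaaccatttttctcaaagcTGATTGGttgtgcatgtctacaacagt
Amelx (chrX:169187243-169187289, minus strand): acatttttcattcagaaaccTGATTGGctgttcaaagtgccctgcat

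The other motifs were shared by fewer of the genes. TATAAA, the TATA box, was found in 3 of the 7 windows (Amelx, Enam and Mmp20) and in 13.6% of all windows. TGTGGT, which Runx factors bind, was found in Odam alone of the 7, 143 bases before the start, and in 16.8% of all windows. CTTTGA, a Lef/Tcf motif, was found in Ambn, Amelx, Enam and Klk4 and in 16.0% of all windows, and in Ambn 1 of its copies overlaps the CCAAT box. TAATTG, a homeobox motif, was found in Odam and Ambn and in 8.00% of all windows. The bone and dentine phosphoprotein genes Spp1, Ibsp, Mepe and Dmp1, secreted relatives of the matrix genes, each had a window with the reversed CCAAT box, beginning 48, 56, 23 and 103 bases before the start. Spp1 and Dmp1 have 2 windows each, of which 1 held the box. Dspp, also searched, had no window.

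**Figure D1:**
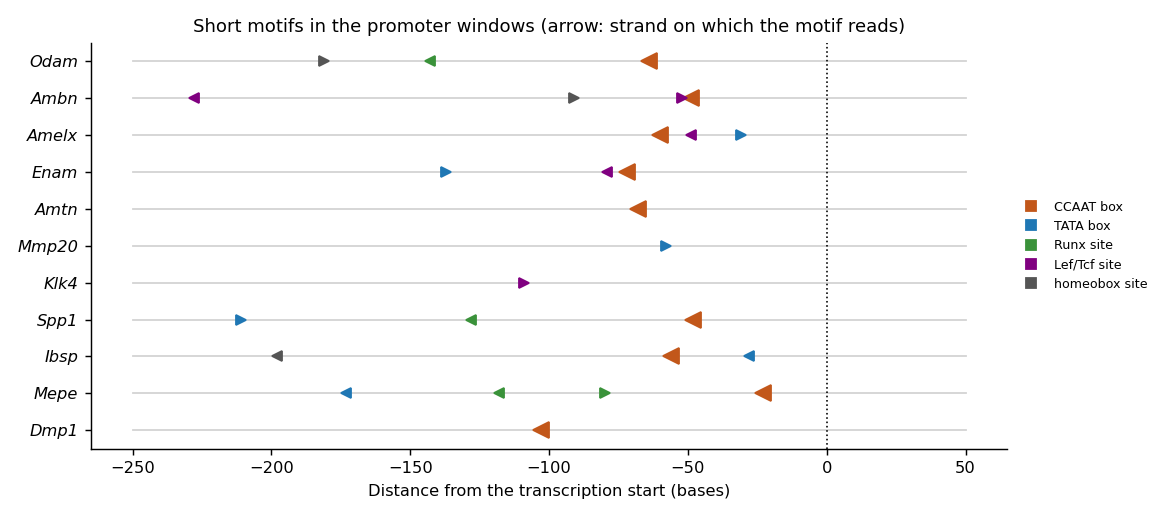
Positions of 5 short motifs in the promoter windows of the 7 enamel genes and of 4 phosphoprotein genes (x axis, bases from the transcription start; arrows point along the strand on which the motif reads). The CCAAT box lies between 72 and 49 bases before the start in the 5 matrix genes and is not found in the Mmp20 and Klk4 windows.

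Odam was in the lower part of the array at the bud stage and among the highest signals at the cap stage. At E13.5 the Odam signal was 3.41, 3.85, 4.24, 3.97 and 3.52 on replicates 1, 2, 4, 5 and 6. At E14.5 it was 8.80, 9.06, 8.74, 8.90 and 9.11 on the same replicate numbers. All E14.5 arrays lay above all E13.5 arrays, with a gap of 4.51 between the lowest of the former and the highest of the latter. The mean signal was 3.80 ± 0.33 (SD, n = 5) at E13.5 and 8.92 ± 0.16 (SD, n = 5) at E14.5, a difference of 5.13 ± 0.15 (SE) in log2 units. This is 34.9-fold in array signal, from an E13.5 level that was not told apart from background. No other gene of the table rose as much. The next largest rises were 2.87 ± 0.39 for ENSMUSG00000029306 and 2.24 ± 0.12 for ENSMUSG00000075217, which carry no symbol in the tables used here. Odam stood at percentile 19.8 ± 5.3 (SD, n = 5) at E13.5 and 98.7 ± 0.25 (SD, n = 5) at E14.5. At the cap stage 356 genes had a higher mean signal.

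Whole germs were measured, so fewer cells that express a gene and less RNA of it per cell cannot be told apart. The mean signal of the 7 dental epithelium markers with an ID was 7.39 to 8.00 on the E13.5 arrays and 8.44 to 8.64 on the E14.5 arrays. It differed by 0.72 between the stages, against 5.13 for Odam. Odam minus the epithelial mean of the same array differed by 4.40, and was at most -3.72 at E13.5 and at least 0.18 at E14.5. Within E13.5, replicate 1 was the lowest array both for Odam and for the epithelial markers, and leaving it out gave a difference of 5.03 for Odam.

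**Figure D2:**
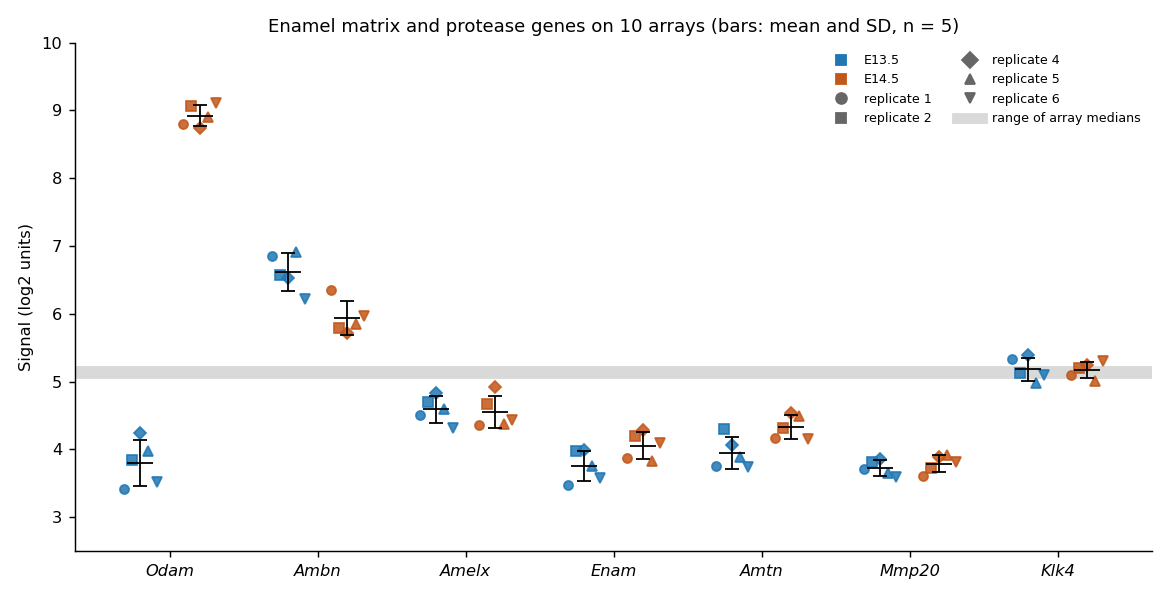
Signal in log2 units (y axis) of the 7 enamel genes on each of the 10 arrays, by stage (colour) and replicate number (symbol), with the mean and SD of 5 arrays per stage and the range of the array medians in grey. Odam lies between 3.41 and 4.24 at E13.5 and between 8.74 and 9.11 at E14.5, while the arrays of both stages overlap for the other 6 genes.

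Ambn encodes the matrix protein through which ameloblasts adhere to forming enamel, and had the highest percentile of the 7 genes at the bud stage. At E13.5 it read 6.86, 6.58, 6.53, 6.90 and 6.22 on replicates 1, 2, 4, 5 and 6. At E14.5 it read 6.35, 5.79, 5.72, 5.85 and 5.97. The E14.5 arrays lay lower, except that E14.5 replicate 1 was above E13.5 replicate 6. The mean was 6.62 ± 0.28 (SD, n = 5) at E13.5 and 5.93 ± 0.25 (SD, n = 5) at E14.5, a difference of -0.68 ± 0.15 (SE). Ambn stood at percentile 76.5 ± 4.8 (SD, n = 5) at E13.5 and 64.8 ± 4.4 (SD, n = 5) at E14.5. On the same arrays the mean signal of the 7 dental mesenchyme markers, of which 6 fell, was 8.30 to 8.51 at E13.5 and 7.36 to 7.49 at E14.5. Their part in the difference of Ambn was not tested.

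Amelx and Enam encode the most abundant and the largest of the secreted matrix proteins. Amelx read 4.51, 4.70, 4.83, 4.59 and 4.31 at E13.5 and 4.36, 4.66, 4.92, 4.38 and 4.43 at E14.5, in the same order of replicates. The arrays of the stages overlapped throughout, and the means of 4.59 ± 0.20 (SD, n = 5) and 4.55 ± 0.24 (SD, n = 5) differed by -0.04 ± 0.13 (SE). Enam read 3.48, 3.97, 3.99, 3.75 and 3.58 at E13.5 and 3.87, 4.20, 4.29, 3.82 and 4.10 at E14.5. E13.5 replicates 2 and 4 lay within the range of the E14.5 arrays, and the means of 3.75 ± 0.23 (SD, n = 5) and 4.06 ± 0.20 (SD, n = 5) differed by 0.30 ± 0.12 (SE). By position within the array the stages of Enam did not overlap, with percentiles of at most 20.9 at E13.5 and at least 21.4 at E14.5.

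Amtn, which codes for a protein of the layer between mature ameloblasts and enamel, was also among the low signals. Amtn read 3.75, 4.30, 4.06, 3.89 and 3.74 at E13.5 and 4.16, 4.32, 4.54, 4.48 and 4.15 at E14.5. E13.5 replicate 2 was the only bud stage array that reached into the range of the cap stage arrays. The means of 3.95 ± 0.24 (SD, n = 5) and 4.33 ± 0.18 (SD, n = 5) differed by 0.38 ± 0.12 (SE). Amtn stood between percentiles 19.6 and 29.3 at E13.5 and between 28.7 and 36.5 at E14.5, and thus stayed in the lower part of the array while Odam, on the same chromosome, reached the top.

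Both proteases differed between the stages by less than the spread between arrays. Mmp20, which cleaves matrix proteins while enamel is being secreted, read 3.70, 3.81, 3.86, 3.65 and 3.59 at E13.5 and 3.60, 3.73, 3.89, 3.91 and 3.81 at E14.5. The arrays of the stages overlapped throughout, and the difference was 0.07 ± 0.08 (SE). Klk4, which degrades the remaining matrix during maturation, read 5.34, 5.12, 5.38, 4.98 and 5.10 at E13.5 and 5.10, 5.20, 5.24, 5.00 and 5.30 at E14.5. It overlapped throughout too, with a difference of -0.01 ± 0.09 (SE) and a signal close to the array medians.

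**Figure D3:**
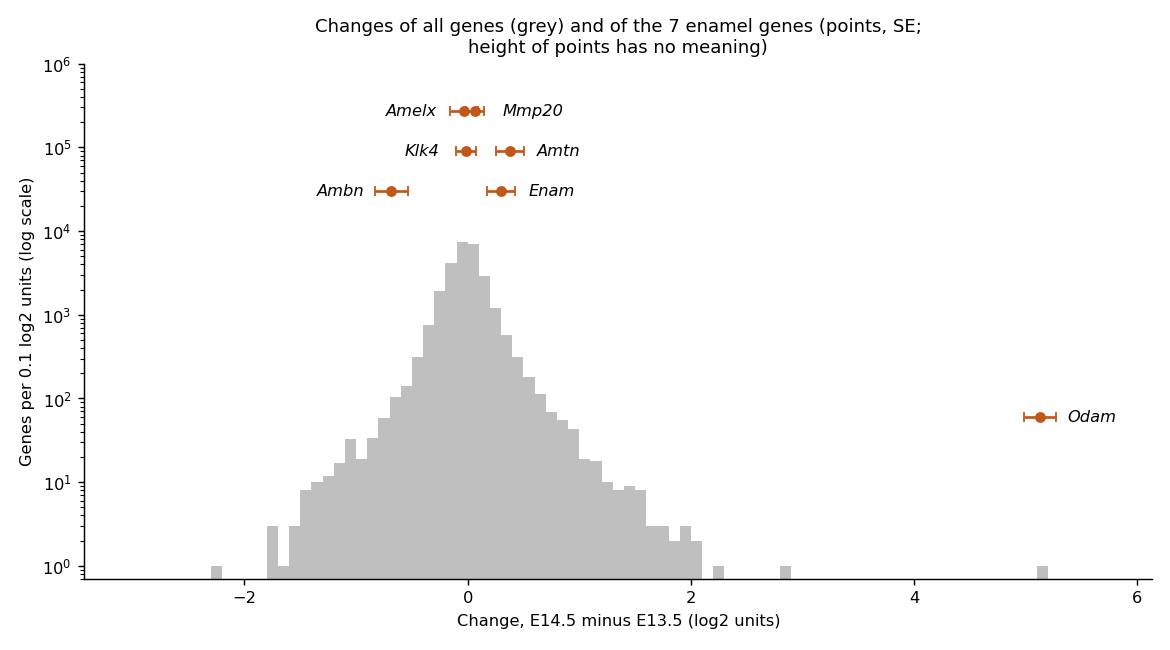
Difference between E14.5 and E13.5 (x axis, log2 units) of all 27528 genes as grey bars (y axis, genes per 0.1 log2 units, log scale) and of the 7 enamel genes as points with the SE of the fit, whose height has no meaning. Odam lies at 5.13, beyond every other gene, Ambn at -0.68, and the remaining 5 between -0.04 and 0.38.

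Across the 7 genes, 1 did not overlap between the stages in signal (Odam), against 8.84% of all genes. By percentile within the array 2 did not overlap (Odam and Enam), against 9.63% of all genes. Past the threshold of the fit lay 2 of the 7 (Odam higher and Ambn lower, 1 in each direction), beside the 7.85% of all genes above. The count was 4 after quantile normalization, with Amtn and Enam added, where 9.07% of all genes passed, and 3 with the replicate number as a block, with Amtn added, where 7.55% passed. The median difference over the 7 genes was 0.07 and that over all genes -0.01. Nothing is read from these counts, since the genes were chosen with this contrast known.

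The order of the 7 genes by percentile, which places their probe signals and not their transcript numbers, changed between the stages mainly through Odam. At E13.5 it ran Ambn (76.5), Klk4 (50.9), Amelx (38.0), Amtn, Odam (19.8), Enam (18.7) and Mmp20 (17.9). The percentile ranges of the first 3 genes did not overlap with each other or with that of Amtn, while each of the 4 lowest overlapped with its neighbour in the order. At E14.5 it ran Odam (98.7), Ambn (64.8), Klk4 (50.7), Amelx (37.2), Amtn (31.7), Enam (25.3) and Mmp20 (19.2). Only the neighbours Amelx and Amtn, and Enam and Mmp20, overlapped there.

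**Figure D4:**
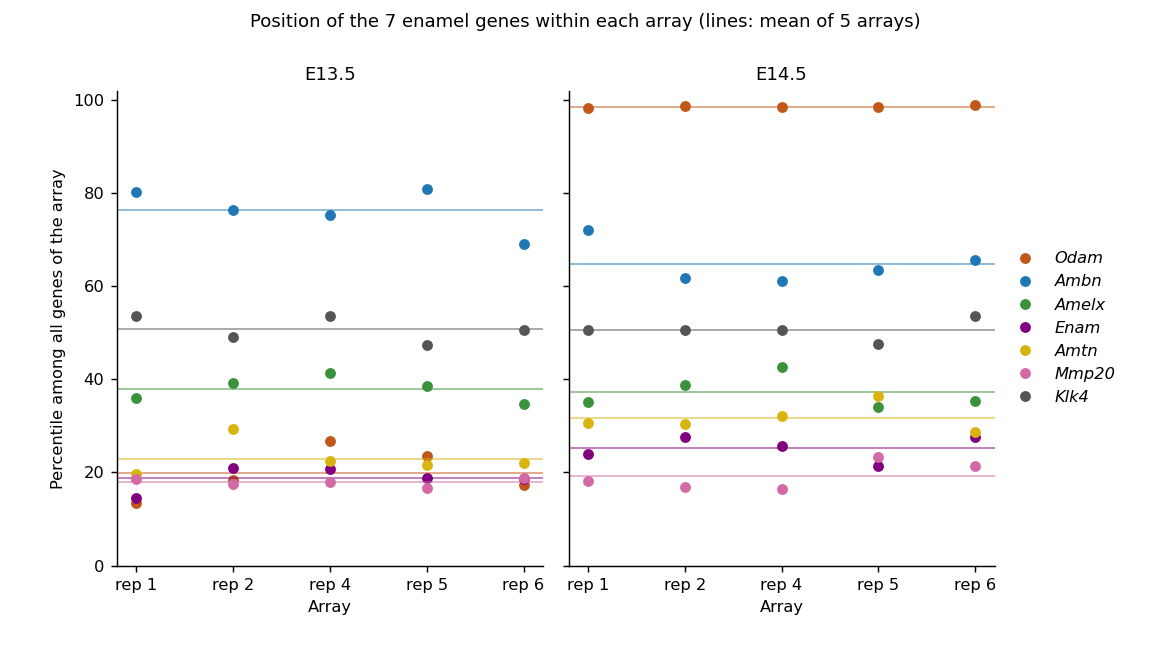
Percentile of each enamel gene among all genes of the same array (y axis) on the 5 arrays of each stage (x axis), with lines at the mean of 5 arrays. Odam stands between 13.4 and 26.7 at E13.5 and between 98.4 and 99.0 at E14.5, whereas Klk4 stays between 47.5 and 53.6 on all 10 arrays.

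Within a stage the low signals of Amelx, Enam, Amtn and Mmp20 varied together from array to array, to different degrees. The deviations of Enam from its stage means correlated with those of Amelx at r = 0.86, and those of Amtn with Mmp20 at r = 0.75 (Pearson, 10 arrays). These were the highest r, and the lowest between these genes was 0.49 (Enam with Mmp20). These arrays share their normalization. Amelx, Enam and Amtn were each highest at E14.5 on replicate 4, whose signals had the smallest SD of the 10 arrays. Amelx, Amtn and Mmp20 were each lowest at E13.5 on replicate 6, whose signals had the greatest. Mmp20, however, was highest at E14.5 on replicate 5 (3.91), and Enam was lowest at E13.5 on replicate 1 (3.48). The part of array spread in this shared variation was not tested. Scaling the arrays to equal spread gave differences between the stages of 0.30 for Enam and 0.38 for Amtn. Quantile normalization, which gives all arrays the same distribution, gave 0.29 and 0.37. The correlations within stages were not computed again after either step. Ambn deviated apart from the others, with r between -0.35 and 0.01 against each of the other 6 genes.

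Among the 395 genes that the tables of the study name, those whose signal was most like Odam over the 10 arrays were Ndrg1 (r = 0.99), Reln (0.99), Shh (0.99), Tgfb1 (0.99) and Wnt10a (0.99). Genes that rise between the stages all score high on this measure, so the deviations from the stage means were compared as well. There Shh, the hedgehog ligand of the enamel knot, was closest (r = 0.90), followed by Spock1 (0.86), Tcf7 (0.77), Eda2r (0.76) and Neurl1a (0.68). A closest r of this size is not particular to Odam. For the other enamel genes it ran from 0.84 (Klk4 with Sostdc1) to 0.97 (Amelx with Acvr1c). Shh was lowest on replicate 1 and highest on replicate 4 of the E13.5 arrays and highest on replicate 6 of the E14.5 arrays, as was Odam. The Shh signal rose from 6.68 ± 0.27 to 8.70 ± 0.23 (SD, n = 5), by 2.02 ± 0.14 (SE). This is a description, since Shh was picked here for its likeness to Odam over both stages. Spock1 and Eda2r did not pass the threshold between the stages (differences of -0.06 and 0.04).

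**Figure D5:**
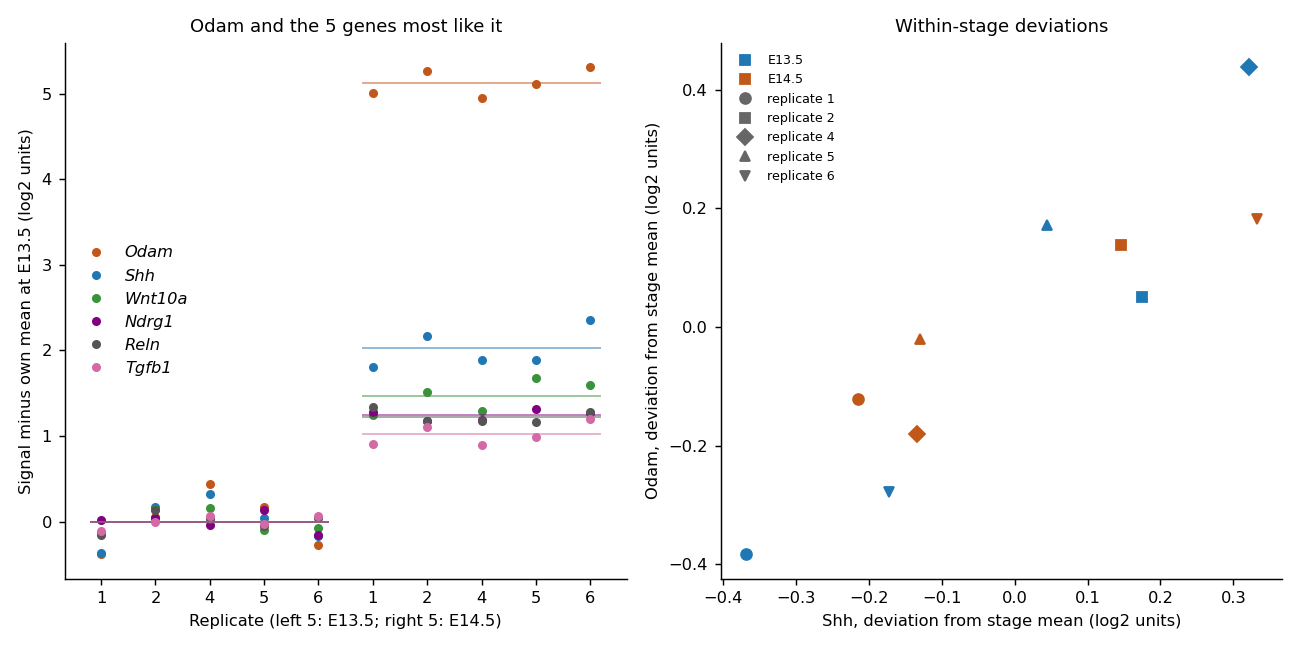
Left, signal minus the gene's own E13.5 mean (y axis, log2 units) on each array (x axis) for Odam and the 5 genes most like it, with lines at the stage means. Right, deviation of Odam against that of Shh from the stage mean on the 10 arrays, by stage (colour) and replicate (symbol), with both genes lowest on E13.5 replicate 1 (r = 0.90).

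The other 6 genes had different nearest genes. For Ambn they were Tnc (r = 0.94), Frzb (0.93) and Gab1 (0.93) in signal, and Araf, Gab1 and Ikbkb in deviation, between 0.81 and 0.85. For Amelx they were Acvr1c (0.95), Aqp9 (0.89) and Irx6 (0.83) in signal, and Acvr1c, Aqp9 and Dmp1 in deviation, between 0.87 and 0.97. For Enam they were Fgfr3 (0.83), Dlx4 (0.81) and Mmp13 (0.79) in signal, and Mmp3, Amelx and Acvr1c in deviation, between 0.84 and 0.87. For Amtn they were Mmp13 (0.93), Fgfr3 (0.90) and Wnt8a (0.83) in signal, and Mmp13, Mmp3 and Rpgrip1 in deviation, between 0.83 and 0.91. For Mmp20 they were Mfng (0.90), Bmp8a (0.87) and Dll1 (0.82) in signal, and Inhbb, Mfng and Wnt9b in deviation, between 0.90 and 0.92. For Klk4 they were Hhip (0.80), Ptch1 (0.78) and Runx3 (0.75) in signal, and Sostdc1, Hhip and Slc13a5 in deviation, between 0.80 and 0.84. Several genes near Amelx, Enam and Amtn were themselves low. Acvr1c, Aqp9, Mmp3, Mmp13 and Rpgrip1 had stage means between 3.61 and 4.37, below the array medians, whereas Fgfr3 lay above them (6.11 and 6.29). The part of background and normalization in these correlations was not tested. None of the 5 genes nearest to Odam in signal was among those of another enamel gene. Little can be read from this, since those 5 genes rose by 1.02 to 2.02 and the other enamel genes differed by -0.68 to 0.38.

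Other genes of hard tissue were set beside the enamel genes. All lists were written with earlier results of these data known. Of all genes, 4.36% were past the threshold and higher at E14.5 and 3.49% lower, with a median difference of -0.01. Of 15 other genes that mouse mutants show to be needed for enamel, 4 rose and 1 fell. Lama3, a laminin chain that anchors epithelium, rose by 0.69 ± 0.07 (SE, limma adjusted p = 6.0e-05), followed by the junction protein Perp, the adhesion protein Nectin1 and the secretory kinase Fam20c with 0.67, 0.50 and 0.48. Postn, a matrix protein of mesenchyme, fell by 0.60. The median difference of the 15 genes was 0.01. Of 6 genes needed for dentine, Alpl, the phosphatase of mineralising cells, rose by 0.74 ± 0.15 and Pkd2 fell by 0.37 ± 0.09 (SE, limma adjusted p = 0.0090 and 0.026), with a median of -0.01.

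Among the acidic phosphoproteins of bone and dentine, Spp1 (osteopontin) rose by 1.89 ± 0.16 (SE, limma adjusted p = 3.3e-05), with 3.98, 4.17, 4.10, 4.14 and 3.95 at E13.5 and 5.69, 6.17, 6.05, 6.46 and 5.42 at E14.5. All cap stage arrays lay above all bud stage arrays. Dmp1 and Dspp, the dentine genes, did not pass the threshold (differences of 0.19 and -0.03). Ibsp and Mepe had no ID in the tables used. Of 6 metalloproteinases and inhibitors, Mmp9, a gelatinase, rose by 1.18 ± 0.10 (SE, limma adjusted p = 3.6e-05) and none of the other 5 passed the threshold, whereas Mmp20 differed by 0.07. Of 3 bone markers with an ID, Alpl and Col1a1 rose, the latter by 0.32 ± 0.08 (SE, limma adjusted p = 0.025), and Bglap did not pass the threshold. Over all genes 7.85% passed it.

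Beside the lists that follow, 4.36% of all genes rose past the threshold and 3.49% fell, with a median of -0.01. Of 9 transcription factors of the enamel organ, 5 rose and none fell, with a median of 0.53. Sp6 (epiprofin), which ameloblasts need, rose by 1.99 ± 0.14 (SE, limma adjusted p = 9.9e-06), and Msx2, Dlx3 and Trp63 by 0.77, 0.53 and 0.42. Of 14 genes of the enamel knot, the signalling centre that forms at the cap stage, 11 rose and none fell, with a median of 0.85. Besides Shh the largest were Fgf4 (1.59), Wnt10a (1.46), Dkk4 (1.18) and Cdkn1a (0.95). Of 7 dental epithelium markers 5 rose, among them Cdh3, Lama3, Perp and Trp63, with a median of 0.69, and Cdh1, Epcam and Krt14 had no ID. Of 7 dental mesenchyme markers 6 fell, led by Lhx8, Pax9, Pdgfra, Lhx6 and Msx1, with a median of -1.09, and Runx2 did not pass the threshold (-0.09). The difference of Odam was 5.13, and the largest among the genes of these lists that had an ID was 2.02. Listed genes without an ID could not be placed. The rises of 2.87 and 2.24 that carry no symbol could not be matched to them, so a listed gene may have risen by more than 2.02.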

How the data were processed

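Signals of mouse molar germs were measured on Affymetrix Mouse Exon 1.0 arrays, 5 at E13.5 and 5 at E14.5. The authors normalized them with aroma.affymetrix and a Brainarray custom probe grouping by Ensembl gene, and the deposited table holds 1 value for each gene on each array. The values deposited by the authors were taken to be log2 signals, since they run from 1.30 to 12.83, but the log base and the background correction are not given in the sources used here. All columns belong to the 10 samples. Stages were taken from the sample titles. The 6 matrix and protease IDs other than that of Odam stand in the gene tables of the study, and the ID of Odam was given with the list of genes.

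The difference of E14.5 from E13.5 was fitted by lmFit and eBayes of limma 3.58.1 (R 4.3.3), two-sided and with no covariate, with Benjamini-Hochberg adjustment over 27528 genes and a threshold of 0.05. The fit was tested on simulated data. Percentiles and correlations were computed with Python 3.11.15, numpy 2.4.6 and pandas 2.3.3, and plots with matplotlib 3.10.9. The genes, the 9 other lists and the rules were chosen with earlier results of these data known. Genes named are the 7 enamel genes, up to 5 genes past the threshold per list with the largest difference, the 3 (Odam, 5) genes most like each by either correlation, and the 3 largest rises; others named fill out a list or describe an array, and 1 gene counted in the lists is not reported here. Symbols came from the tables of the study, in which 395 of 399 genes had a row. Promoter windows came from RefSeq (GRCm38.p6). The stages share replicate numbers, but no source says what a number marks, so arrays were not treated as paired. Deviations of same-numbered arrays from the stage means correlated at 0.39, -0.08, 0.51, 0.03 and 0.28 for replicates 1, 2, 4, 5 and 6. Arrays of different numbers correlated at -0.57 (E13.5 replicate 6 with E14.5 replicate 4) to 0.42 (E13.5 replicate 2 with E14.5 replicate 4). With the number as a block the SE was 0.07 for Amelx and 0.08 for Enam, against 0.13 and 0.12 without it. For Odam it was 0.15 either way. Alternatives were other normalizations, array weights, a filter on dim genes, a trended prior, the replicate block and leaving out each array.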

Additional observations from a re-analysis of the deposited data

Results flagged for a closer look

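No array of an enamel gene stood apart from the other 4 of its stage by Dixon's ratio. Among the other genes named, 7 values did: Foxi3 read 7.43 on E13.5 replicate 1 (others 8.84 to 9.18) and 10.0001 on E14.5 replicate 6 (others 9.68 to 9.71), Perp read 10.5 on E14.5 replicate 6 (others 10.2), Cdkn1a 6.91 on E14.5 replicate 4 (others 7.26 to 7.36), Lhx6 8.00 on E13.5 replicate 4 (others 8.14 to 8.17), Frzb, near Ambn in signal, 8.13 on E14.5 replicate 1 (others 7.23 to 7.41), and Aqp9, near Amelx in signal, 4.07 on E13.5 replicate 6 (others 4.40 to 4.50). Chance marks about 1 in 20 groups, which is 6.9 of the 138 groups of 5 arrays examined, so 7 is about the number due to chance.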

How the results depend on the processing

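The differences of the 7 enamel genes moved by less than 1 SD between replicates under every alternative that gave a value. Without single arrays, Odam ranged from 5.03 to 5.24, Ambn from -0.79 to -0.61, Amelx from -0.13 to 0.02, Enam from 0.23 to 0.36, Amtn from 0.33 to 0.47, Mmp20 from 0.03 to 0.11 and Klk4 from -0.06 to 0.04. The filter on dim genes left no value for Amelx, Enam, Amtn and Mmp20. Past the threshold were 4 of the 7 after quantile normalization (Amtn and Enam added; 9.07% of all genes passed), 3 with array quality weights or the replicate block (Amtn added), and 2 to 3 without single arrays.

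Over all genes, 2162 passed the threshold, 2077 with the replicate block, 3911 with array quality weights, and 1479 (without E13.5 replicate 5) to 2554 (without E13.5 replicate 2) without single arrays. Of the 2162, 1201 were higher and 961 lower, against 1939 and 1972 with array quality weights, 1200 and 1212 without dim genes, and 1204 and 1350 without E13.5 replicate 2. The array weights gave 9 of the other enamel genes, 2 metalloproteinases and inhibitors, and 9 transcription factors. Quantile normalization gave 1 dentine gene, 2 metalloproteinases and inhibitors, and 8 transcription factors. The dim filter left 0 phosphoproteins called, since it removed Spp1. Without single arrays, counts ran from 4 to 7 for other enamel genes, 1 to 2 for dentine, 1 to 1 for phosphoproteins, 1 to 2 for metalloproteinases and inhibitors, 4 to 7 for transcription factors, 11 to 12 for the enamel knot, 5 to 7 for epithelium, 6 to 6 for mesenchyme and 1 to 2 for bone. The arrays that moved a list count by over 1.5 times were E13.5 replicate 5 and E14.5 replicates 2, 5 and 6 for dentine (1 gene without each), E13.5 replicate 1 for metalloproteinases and inhibitors (2), and E13.5 replicates 1 and 5 and E14.5 replicates 2, 4, 5 and 6 for bone (1 each). The cause of these shifts was not tested. By Spearman's correlation 2 of the 5 genes most like Odam were the same. The number of arrays limits the precision, and signal over background is unknown.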
